A study of Mus musculus with 24 samples.

Results

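Core pluripotency and Dppa genes were followed in mouse embryonic stem (ES) cells that lack a subunit of the m6A RNA methyltransferase complex. The genes were chosen by name and comprised Pou5f1, Sox2, Sall4, Lin28a, Utf1, Tdgf1, Dppa2, Dppa3, Dppa4 and Dppa5a, which are 10 of the 47937 genes in the RNA-seq table and of the 49090 genes and repeat subfamilies in the MeRIP-seq table. All 10 were found in both tables. The 4 ES cell lines compared were all grown on gelatin with serum replacement and leukemia inhibitory factor (LIF), the cytokine that keeps mouse ES cells undifferentiated. WT26 is a wild type line of 129/Sv x C57Bl6 background and the control of Mettl14 KO, which is a single CRISPR clone (A10). RBC is an engineered wild type line, also of 129/Sv x C57Bl6 background, that carries Rosa26 BirA-V5 and Cre-ERT2. It is the control of Mettl3 KO, a single clone (2c4d) derived from RBC that carries the same Rosa26 BirA-V5 and Cre-ERT2. Since each knockout is 1 clone, the effect of the knockout and the history of the clone cannot be told apart. Each line had 2 RNA-seq libraries, whose RNA the sample labels call total and the study's text calls nuclear, and 2 input and 2 immunoprecipitated (IP) libraries of nuclear RNA from MeRIP-seq, in which an m6A antibody enriches methylated RNA fragments.

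Pou5f1 (Oct4) and Sox2 encode the transcription factors that bind together at enhancers of ES cells and hold the pluripotent state. Sall4 encodes a zinc finger protein that works with them and recruits the NuRD complex, and Utf1 encodes a chromatin-bound target of Pou5f1 and Sox2. Lin28a encodes the RNA-binding protein that blocks maturation of let-7 microRNAs, and Tdgf1 (Cripto) encodes the cell surface co-receptor for Nodal. The Dppa (developmental pluripotency associated) genes are not one family: Dppa2 and Dppa4 encode related SAP domain proteins that activate early embryonic genes, Dppa3 (Stella) encodes the maternal factor that guards the zygote genome from DNA demethylation, and Dppa5a (Esg1) encodes a small KH domain protein of ES cells. Mettl3 is the catalytic subunit of the m6A methyltransferase and Mettl14 its RNA-binding partner, and the complex prefers adenosines inside GGAC-type motifs. m6A on messenger RNA is known to shorten RNA lifetime, and Sox2 is among the pluripotency transcripts known to carry it.

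The genes lie on 8 chromosomes of GRCm38 (GENCODE M21 gene models). Dppa4 (chr16:48283733-48294237) and Dppa2 (chr16:48303908-48319723) are neighbours on the plus strand, 9.7 kb apart. Dppa3 (chr6:122626410-122630272) lies 16.3 kb from Gdf3 and 77.2 kb from Nanog. Tdgf1 (chr9:110939603-110946158) and Dppa5a (chr9:78367052-78368177) share a chromosome but not a neighbourhood, being 32571.4 kb apart. Sox2 (chr3:34650405-34652461) is a gene of 1 exon that lies in an intron of the long non-coding RNA gene Sox2ot on the same strand. Pou5f1 (chr17:35506018-35510772), Sall4 (chr2:168748332-168767943) and Lin28a (chr4:134003330-134018841) overlap exons of antisense genes, and whether the RNA-seq counting used strand is not given in the sources used here. Utf1 is at chr7:139943789-139945112.

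The letters GGACT, the DNA form of the strongest m6A consensus, were searched on the sense strand of 1 transcript model per gene. They were found in 7 of the 10 transcripts and in 86.7% of the 21901 protein-coding transcripts searched in the same way. Dppa3, Dppa4 and Dppa5a held none. Sall4 and Lin28a held 5 each, Sox2 and Tdgf1 3 each, Utf1 2, and Pou5f1 and Dppa2 1 each. Per length, Utf1 (1.63 per kb), Tdgf1 (1.55), Sox2 (1.46) and Lin28a (1.43) were above the median of all transcripts (1.01 per kb). All the matches of Sox2 lie in its 3′ UTR and 4 of the 5 of Sall4 in its coding sequence. The matches of the 3 transcripts most enriched by the m6A antibody (Sox2, Sall4 and Tdgf1), and for contrast those of Pou5f1, near equality, and the 3′ UTR matches of Lin28a, below it, are shown as windows of 25 bases in the direction of the transcript, with GGACT in capitals.
Sox2, 3′ UTR, chr3:34651371-34651395, plus strand: tgtgagggctGGACTgcgaactgga
Sox2, 3′ UTR, chr3:34651583-34651607, plus strand: agagatcttgGGACTtctttttggg
Sox2, 3′ UTR, chr3:34651598-34651622, plus strand: tctttttgggGGACTatttttgtac
Sall4, coding, chr2:168756743-168756767, minus strand: aagcctcagaGGACTccataccggt
Sall4, coding, chr2:168756578-168756602, minus strand: tgccttcagaGGACTtttccagagc
Sall4, coding, chr2:168756494-168756518, minus strand: gcagctcgggGGACTtgaagaagct
Sall4, coding, chr2:168756473-168756497, minus strand: agctgggcacGGACTccatcctgta
Sall4, 3′ UTR, chr2:168749593-168749617, minus strand: gaaacagttgGGACTcattggacca
Tdgf1, coding, chr9:110942594-110942618, minus strand: ctgaatggagGGACTtgcatcctgg
Tdgf1, coding, chr9:110940769-110940793, minus strand: aaagcatccgGGACTccgtgtcaaa
Tdgf1, 3′ UTR, chr9:110939872-110939896, minus strand: ggctacaacaGGACTactaaaagct
Lin28a, 3′ UTR, chr4:134005701-134005725, minus strand: tctggggaagGGACTcccaggagca
Lin28a, 3′ UTR, chr4:134004704-134004728, minus strand: catgaggcagGGACTcaactcctta
Lin28a, 3′ UTR, chr4:134004402-134004426, minus strand: ggcctttgtaGGACTtttactgtct
Lin28a, 3′ UTR, chr4:134003725-134003749, minus strand: accagaaaagGGACTatgaatgtac
Pou5f1, coding, chr17:35506315-35506339, plus strand: acctcaggttGGACTgggcctagtc
A match is a description of the letters and not a measured m6A site, since the count tables hold reads per gene and no position within it. The wider m6A pattern RRACH (R is A or G, H is A, C or T) was in all 10 transcripts, from 9.69 per kb in Dppa5a to 19.2 in Dppa2. Its median over all transcripts was 14.8 per kb.

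RNA-seq totals ranged from 11321459 to 13743181 counts and MeRIP-seq totals from 9394163 to 28441282. The RBC replicates of RNA-seq stood apart from each other: the chi-square of their counts per degree of freedom was 39.8, against 2.95 to 6.31 in the other lines. In MeRIP-seq, replicate 1 was sequenced more deeply than replicate 2 in every line, and same-numbered IP libraries of different lines deviated together from their line means (correlations across features of 0.598 to 0.806). Mettl3, the gene targeted in Mettl3 KO, had 928 and 979 normalised read counts in RBC and 880.0 and 821 in Mettl3 KO, and the change did not pass the test (log2 fold change −0.16 ± 0.07 SE, adjusted p = 0.0588, edgeR). Mettl14 had 401 and 358 in WT26 and 296 and 316 in Mettl14 KO, which was lower by less than the fold limit used below (−0.31 ± 0.09, adjusted p = 0.00609, edgeR), so that the RNA level of the targeted gene gives no check of either knockout label beyond these small differences.

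All 10 genes except Dppa3 were expressed in every line, and the order of the levels per length was alike at its top. Read counts were divided by size factors (normalised read count) and, for comparison between genes only, by exon length in kb. Dppa5a had the highest level, 7742 to 9132 normalised counts per kb in the control libraries, followed by Tdgf1 (3931 to 4678), Pou5f1 (1446 to 1539), Sox2 (948 to 1062) and Dppa4 (689 to 739). These 5 held the same order in each of the 4 lines, although Dppa5a (1847 to 1998) and Tdgf1 (1548 to 1675) of Mettl3 KO came close together. Utf1, Sall4, Lin28a and Dppa2 followed between 113 and 479 per kb, with an order that changed between lines. Dppa3 was the lowest in every line, at 2.2 to 20.8 per kb.

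**Figure D1:**
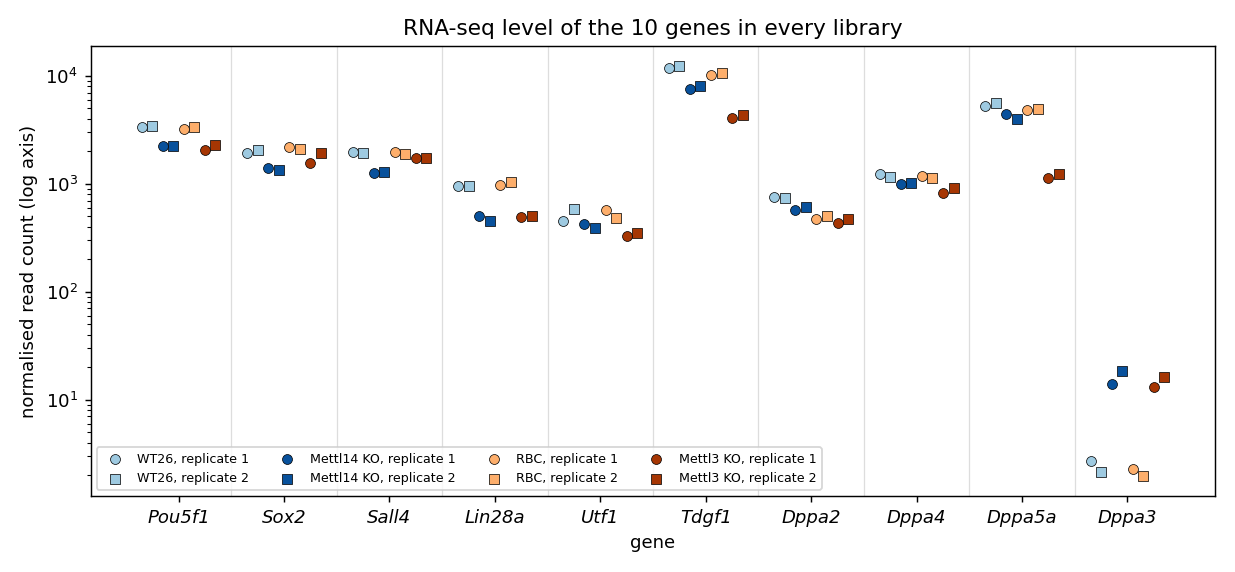
Normalised RNA-seq read count (log axis) of the 10 genes in each of the 8 libraries. Circles are replicate 1 and squares replicate 2, and colours mark the lines. Both Mettl3 KO libraries are far below RBC for Tdgf1 and Dppa5a, and Dppa3 is the only gene with both knockouts above both controls.

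In Mettl14 KO, 9 of the 10 genes had lower RNA levels than in WT26 and Dppa3 was higher. The decreases were modest, with a median log2 fold change of −0.46 over the 10 genes, against 0 over the 17021 genes tested. Calls asked for an adjusted p no higher than 0.05 together with a log2 change of more than 1 in either direction. By this rule 1 gene was lower (Lin28a) and 1 higher (Dppa3), where 6.57% and 7.95% of all tested genes were called lower and higher. Dppa3 passed the filter on low counts only through the knockout libraries, so its call was bound to the filter and is a description only. At the adjusted p alone 9 of the 10 were lower, against 27.0% of all genes. Both Mettl14 KO libraries were below both WT26 libraries for those 9 genes, which was so for 38.7% of all genes.

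In Mettl3 KO, the same 9 genes had lower values than in RBC and Dppa3 was again higher, with a median log2 fold change of −0.51 against −0.00 over all genes. Called lower were Dppa5a, Tdgf1 and Lin28a (3 of 10, against 7.43% of all genes), and called higher was Dppa3 (1 of 10, against 6.15%). The Dppa3 call was again bound to the filter on low counts. At the adjusted p alone 8 were lower (28.1% of all genes), the exception being Dppa2. Both Mettl3 KO libraries were below both RBC libraries for 9 of the 10, which was so for 38.3% of all genes. Scaling by library size in place of size factors raised every log2 change of this comparison by 0.15, and Sox2 (−0.14) and Sall4 (−0.01) then no longer passed the adjusted p while Dppa2 turned to 0.03. Over all genes, the calls in Mettl3 KO were 1047 higher and 1265 lower with size factors, and 1459 and 953 with library sizes. With only 2 libraries per line, p-values rest on a spread shared by all 8 libraries.

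**Figure D2:**
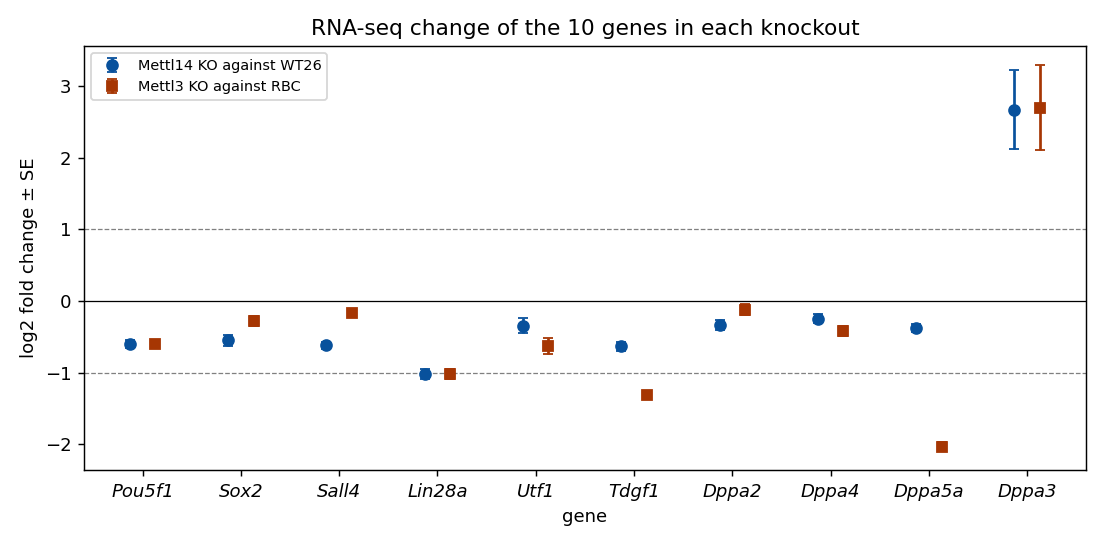
RNA-seq log2 fold change of each gene in Mettl14 KO against WT26 (blue circles) and Mettl3 KO against RBC (brown squares), with bars of 1 SE from the edgeR fit. Dashed lines mark the fold limit of 1. Lin28a sits at the limit in both knockouts, and Tdgf1 and Dppa5a lie apart between them.

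Pou5f1, the POU factor at the centre of the network, had 3395 and 3460 normalised counts in WT26 and 2266 and 2254 in Mettl14 KO. The RBC libraries had 3250 and 3362, against 2070 and 2306 for Mettl3 KO. Replicates lay close together and neither knockout overlapped its control. The log2 fold changes were −0.60 ± 0.05 (SE, n = 2 against 2, adjusted p = 2.72e-08, edgeR) and −0.60 ± 0.05 (adjusted p = 2.72e-08, edgeR), and their difference was 0.00 ± 0.07 (adjusted p = 0.972, edgeR).

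Sox2, the HMG box partner of Pou5f1, had 1951 and 2056 normalised counts in WT26 against 1400 and 1336 in Mettl14 KO. In RBC it had 2184 and 2106, and in Mettl3 KO 1577 and 1947, so that the Mettl3 KO replicates were wider apart than the others. The change was −0.55 ± 0.07 in Mettl14 KO (adjusted p = 4.31e-06, edgeR) and −0.29 ± 0.07 in Mettl3 KO (adjusted p = 0.00224, edgeR). The decrease in Mettl14 KO exceeded that in Mettl3 KO by 0.26 ± 0.10 (adjusted p = 0.0401, edgeR), and this passed the adjusted p in 8 of 15 alternatives. Without Mettl3 KO replicate 1 the change in Mettl3 KO was −0.14 and missed the adjusted p.

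Sall4, the zinc finger factor, had 1992 and 1919 normalised counts in WT26 and 1266 and 1285 in Mettl14 KO, a change of −0.62 ± 0.05 (adjusted p = 6.55e-09, edgeR). RBC had 1981 and 1901 and Mettl3 KO 1744 and 1728, a change of −0.16 ± 0.05 (adjusted p = 0.00758, edgeR) that was lost without RBC replicate 1 (−0.13) and with DESeq2. Both knockouts lay below their controls, and the Mettl14 KO libraries were the lowest of all 8. The difference between the changes was 0.46 ± 0.07 (adjusted p = 2.59e-05, edgeR) and passed the adjusted p in 15 of 15 alternatives.

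Lin28a, which keeps let-7 low, was at 961 and 963 normalised counts in WT26 and at 501 and 450.1 in Mettl14 KO. RBC had 979 and 1045 and Mettl3 KO 489 and 507. Lin28a was the only gene called lower in both knockouts, with changes of −1.02 ± 0.07 in Mettl14 KO (adjusted p = 1.71e-09, edgeR) and −1.03 ± 0.07 in Mettl3 KO (adjusted p = 1.31e-09, edgeR). The decrease passed the adjusted p in 12 of 12 alternatives in each knockout, but its size is at the fold limit. It missed the limit without Mettl14 KO replicate 2 (−0.94), and in Mettl3 KO without RBC replicate 2 (−0.98), without Mettl3 KO replicate 1 (−0.995) and with library size scaling (−0.87).

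Utf1, the chromatin-bound Pou5f1 target, had uneven control replicates of 452 and 587 normalised counts in WT26 and 575 and 485 in RBC. The Mettl14 KO libraries had 427 and 390, those of Mettl3 KO had 330 and 353, and neither knockout overlapped its control. The changes were −0.34 ± 0.11 (adjusted p = 0.0142, edgeR) and −0.63 ± 0.11 (adjusted p = 0.000121, edgeR). The change in Mettl14 KO missed the adjusted p without WT26 replicate 2 (−0.15) or Mettl14 KO replicate 2 (−0.28), and the difference between the knockouts did not pass the test (−0.29 ± 0.16, adjusted p = 0.149, edgeR).

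Tdgf1, the Nodal co-receptor, had the highest counts of the 10 before division by length. WT26 had 11949 and 12265 normalised counts and Mettl14 KO 7506 and 8089, a change of −0.63 ± 0.06 (adjusted p = 4.58e-08, edgeR). RBC had 10308 and 10745 and Mettl3 KO 4058 and 4392, a change of −1.32 ± 0.06 (adjusted p = 4.47e-12, edgeR), or 0.401 of the RBC level. Every Mettl3 KO value was below every Mettl14 KO value. The additional decrease in Mettl3 KO was −0.68 ± 0.08 (adjusted p = 2.45e-06, edgeR). Tdgf1-ps1, a processed copy of the gene, had 137 to 448 counts per library, and reads shared between the copies cannot be told apart.

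Dppa5a, the KH domain protein gene, showed the largest decrease of the 10 and the largest contrast between the knockouts. It had 5313 and 5653 normalised counts in WT26 and 4427 and 4013 in Mettl14 KO, a change of −0.38 ± 0.06 (adjusted p = 2.26e-05, edgeR). RBC had 4792 and 4948, and Mettl3 KO had 1144 and 1237, which is 0.244 of the RBC level (−2.03 ± 0.06, adjusted p = 2.14e-14, edgeR). The Mettl3 KO libraries stood far below the other 6. The difference between the changes was −1.66 ± 0.08 (adjusted p = 7.24e-11, edgeR), the only one of the 10 past the fold limit in this contrast, where 8.07% of all genes were. At the adjusted p alone 2 of the 10 differed upwards (Sox2 and Sall4, against 20.8% of all genes) and 2 downwards (Tdgf1 and Dppa5a, against 22.4%).

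Dppa4 and Dppa2, the neighbouring SAP domain genes, changed by less than the fold limit in both knockouts. Dppa4 fell from 1229 and 1161 normalised counts in WT26 to 993 and 1024 in Mettl14 KO, and from 1186 and 1146 in RBC to 822 and 925 in Mettl3 KO. Its changes were −0.25 ± 0.06 (adjusted p = 0.00311, edgeR) and −0.42 ± 0.06 (adjusted p = 2.36e-05, edgeR). Dppa2 had 748 and 743 in WT26 and 568 and 613 in Mettl14 KO (−0.34 ± 0.07, adjusted p = 0.000774, edgeR). The RBC libraries had 474 and 508, and those of Mettl3 KO 437 and 468, close enough that the change did not pass the test (−0.12 ± 0.08, adjusted p = 0.205, edgeR). The largest Dppa2 value was that between the control lines: RBC was below WT26 by −0.60 ± 0.07 (adjusted p = 4.08e-06, edgeR), and both RBC libraries were below both Mettl14 KO libraries.

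Dppa3, the maternal factor gene, was the only one of the 10 with more RNA in the knockouts, at a very low level. It had 3 and 2 reads in the WT26 libraries and 2 and 2 in the RBC libraries, against 14 and 19 in the Mettl14 KO libraries, with 15 and 16 for Mettl3 KO. Every knockout library held more reads than every control library. The summed, scaled counts were 6.64 times those of WT26 in Mettl14 KO (95% counting interval 2.58 to 21.8) and 6.82 times those of RBC in Mettl3 KO (2.41 to 26.6), and these intervals cover counting error only. The fitted changes were 2.67 ± 0.55 (adjusted p = 0.000441, edgeR) and 2.70 ± 0.59 (adjusted p = 0.000723, edgeR). Dppa3 passed the filter on low counts only through the knockout libraries, so that a tested Dppa3 had to differ, and it was not tested where at least 10 counts were asked of every library.

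Between the control lines none of the 10 genes was called by edgeR or DESeq2 (4.12% of all genes were lower in RBC and 4.86% higher). At the adjusted p alone 3 were lower in RBC than in WT26, against 19.2% of all genes: Dppa2 as above, Tdgf1 (−0.20 ± 0.06, adjusted p = 0.00844, edgeR) and Dppa5a (−0.17 ± 0.06, adjusted p = 0.023, edgeR). The lower Dppa5a and Tdgf1 of Mettl3 KO therefore compare with a control in which both were slightly lower than in WT26.

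For each gene the most similar profile over the 8 libraries was sought among genes with a mean of at least 50 normalised counts, as the smallest root mean square difference of log2(normalised count + 1) centred per gene. The closest were Actb for Pou5f1 (difference 0.034), AU020206 for Sall4 (0.034), Sppl2b for Dppa4 (0.035), Car13 for Dppa2 (0.042) and Ppp1r14b for Sox2 (0.042). Mvd was the closest to Lin28a (0.060), Minos1 to Utf1 (0.081) and Atxn7l3b to Tdgf1 (0.085). Mpzl2 was the closest to Dppa5a (0.17) and Slc22a21 to Dppa3 (0.25), and these differences are larger for genes that themselves vary more over the libraries. No member of the 10 was the closest match of another.

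The MeRIP-seq inputs gave a further measurement of the levels in other libraries, made from sonicated nuclear RNA. The 9 genes other than Dppa3 all had negative input log2 changes in both knockouts, and edgeR called none of the 10 in either direction (in Mettl14 KO 0.274% of all 22621 features were called lower and 0.124% higher, in Mettl3 KO 0.570% and 0.181%). At an unadjusted p under 0.05, edgeR had 1 of the 10 in the Mettl14 KO inputs (Lin28a) and 6 in the Mettl3 KO inputs. Both directions are counted, and over all features these were 2389 (10.6%) and 2638 (11.7%). DESeq2 called 1 of the 10 lower in the Mettl3 KO inputs and none in the Mettl14 KO inputs. Over all features it called 297 and 228 lower. Tdgf1 had 4836 and 4218 normalised counts in the RBC inputs and 2120 and 1492 in the Mettl3 KO inputs (−1.33 ± 0.32, adjusted p = 0.0715, edgeR). Dppa5a had 2284 and 1400 in the RBC inputs against 652 and 731 in Mettl3 KO (−1.41 ± 0.45, adjusted p = 0.193, edgeR). Neither overlapped its control, but the share of all features with this order in the inputs was not computed. The RBC inputs of Dppa5a were widely spread. Tdgf1 was called lower in 5 and Dppa5a in 3 of 13 alternatives, which include the replicate block over the lines.

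Lin28a was lower in the inputs of both knockouts by less than in RNA-seq, with −0.69 ± 0.24 in Mettl14 KO (adjusted p = 0.283, edgeR) and −0.80 ± 0.24 in Mettl3 KO (adjusted p = 0.167, edgeR). Sall4 and Sox2 had −0.73 ± 0.38 and −0.71 ± 0.41 in the Mettl14 KO inputs, and −0.16 ± 0.38 and −0.21 ± 0.41 in those of Mettl3 KO. Pou5f1 had −0.47 ± 0.22 and −0.50 ± 0.22. These values did not pass the test. Dppa3 had no read in either RBC input and 10 and 8 in the Mettl3 KO inputs, which is at least 5.85-fold higher when 3 reads over the RBC inputs are taken as the floor, while the WT26 inputs had 2 and 6 and the Mettl14 KO inputs 14 and 3.

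**Figure D3:**
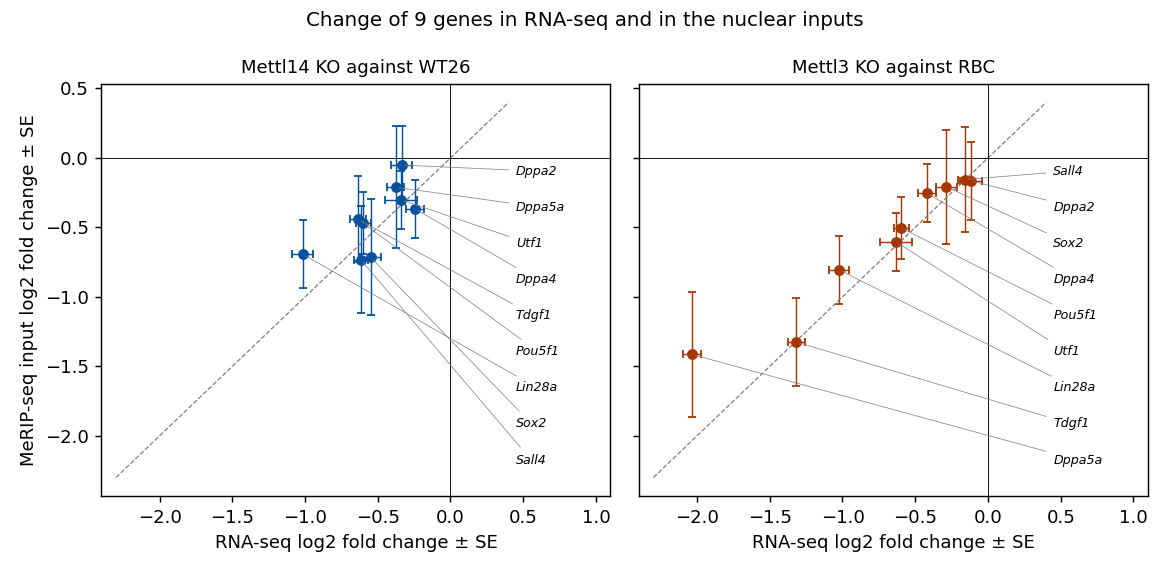
RNA-seq log2 fold change (horizontal) and MeRIP-seq input log2 fold change (vertical) of the 9 genes other than Dppa3, with bars of 1 SE. The left panel is Mettl14 KO against WT26 and the right panel Mettl3 KO against RBC, and the dashed line marks equal change. All points lie below 0 on both axes, and Tdgf1 and Dppa5a are the lowest of Mettl3 KO on both.

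Among the 9 genes other than Dppa3, IP over input was highest for Sox2 in every line, with Sall4 and Tdgf1 next in WT26, Mettl14 KO and RBC. A log2 ratio above 1 with an adjusted p no higher than 0.05 was called enriched. In WT26 3 of the 10 genes were enriched (Sox2, Sall4 and Tdgf1), against 14.5% of all features. In Mettl14 KO the same 3 were enriched, against 11.9%, in RBC 2 were (Sox2 and Sall4), against 13.4%, and in Mettl3 KO 1 was (Sox2), against 2.54%. At the adjusted p alone 4, 4, 5 and 1 of the 10 were higher in IP, against 16.9%, 13.5%, 15.5% and 2.78% of all features. None of the 10 was called lower in IP than in input. The libraries are scaled to each other over all features, so the ratio is relative to the other RNAs of a sample and holds no absolute level of m6A.

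Sox2 had log2 ratios of 1.44 and 2.40 in the WT26 pairs of input and IP and 1.64 and 2.86 in those of Mettl14 KO. The RBC pairs gave 1.37 and 2.66 and the Mettl3 KO pairs 1.36 and 2.27. Replicate 2 was higher than replicate 1 in every line, and the 4 lines overlapped. The fitted enrichments were 1.97 ± 0.42 (adjusted p = 0.0077, edgeR), 2.33 ± 0.43 (adjusted p = 0.00745), 2.10 ± 0.43 (adjusted p = 0.00899) and 1.89 ± 0.42 (adjusted p = 0.0262) in the same order. With a replicate block for the pairs of input and IP, which come from the same RNA, Sox2 in Mettl3 KO (1.82) no longer passed the adjusted p. All the GGACT matches of this transcript lie in the 3′ UTR windows shown above.

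Sall4 had pair ratios of 0.86 and 1.57 in WT26, and both Mettl14 KO and RBC had 0.70 and 1.71. The Mettl3 KO pairs gave 0.07 and 0.80. Replicate 2 was again above replicate 1 in each line, and the Mettl3 KO value was the lowest of its replicate number. The share of all features with such an order was not computed. Enrichments were 2.39-fold in WT26 (adjusted p = 0.025, edgeR), a log2 ratio of 1.29 ± 0.39 in Mettl14 KO (adjusted p = 0.0285), 1.30 ± 0.39 in RBC (adjusted p = 0.0263) and 0.48 ± 0.38 in Mettl3 KO (adjusted p = 0.444). The change in Mettl3 KO against RBC was −0.63 within replicate 1 and −0.92 within replicate 2, and it did not pass the test (−0.81 ± 0.54, adjusted p = 0.854, edgeR). With a replicate block separate for input and IP the adjusted p was 0.0988, the lowest of 18 alternatives.

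Tdgf1 was at the fold limit, with pair ratios of 0.64 and 1.33 in WT26 and 0.91 and 1.35 in Mettl14 KO. Those of RBC were 0.76 and 1.23, and those of Mettl3 KO 0.69 and 1.14. The lines overlapped throughout. Its enrichment was 1.01 ± 0.31 in WT26 (adjusted p = 0.0263, edgeR) and 1.18 ± 0.31 in Mettl14 KO (adjusted p = 0.0184), and it was 0.9995 ± 0.31 in RBC, just inside the limit (adjusted p = 0.0314), and 0.89 ± 0.31 in Mettl3 KO (adjusted p = 0.101). The call in WT26 was lost with the replicate block of pairs (0.99), among other alternatives. Leaving out replicate 2 of the input or of the IP removed nearly all calls of enrichment over all features. Leaving out replicate 1 of the IP added calls in every line. A call lost or gained in these fits is therefore no trait of the 10 genes. Over the 13 alternatives the Tdgf1 ratio in WT26 ranged from 0.74 to 1.41.

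Dppa2 and Dppa4 had positive ratios in every pair. Neither transcript model holds GGACT in its coding sequence or 3′ UTR, but they hold 47 and 25 matches of RRACH (19.2 and 16.9 per kb). Dppa2 had 0.56 and 1.12 in WT26 and 0.54 and 0.88 in Mettl14 KO. It had 0.56 and 1.03 in RBC but 0.05 and 0.28 in Mettl3 KO. Both Mettl3 KO values were below the other 6, and the change against RBC did not pass the test (−0.65 ± 0.39, adjusted p = 0.854, edgeR). The share of all features with this order was not computed. Enrichment was called for 2.54% of all features in Mettl3 KO, against 13.4% in RBC. Dppa4 ranged from 0.40 to 0.95 over the 8 pairs, and its enrichment in RBC was 0.69 ± 0.21 (adjusted p = 0.0278, edgeR).

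Utf1 also had a positive ratio in every pair, from 0.03 to 0.73, and Pou5f1 ranged from −0.09 to 0.44. Dppa5a, with no GGACT in its transcript model, split by replicate in WT26, Mettl14 KO and RBC, with 0.43 to 0.56 in replicate 1 and −0.64 to −0.38 in replicate 2. In Mettl3 KO it had 0.75 and 0.90. Lin28a was below 0 in all 8 pairs, from −0.94 to −0.20. Its transcript model holds 5 matches of GGACT and 51 of RRACH (14.6 per kb). Dppa3 had 0 to 23 reads per library and its ratios are not given where a library held 3 reads or fewer.

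**Figure D4:**
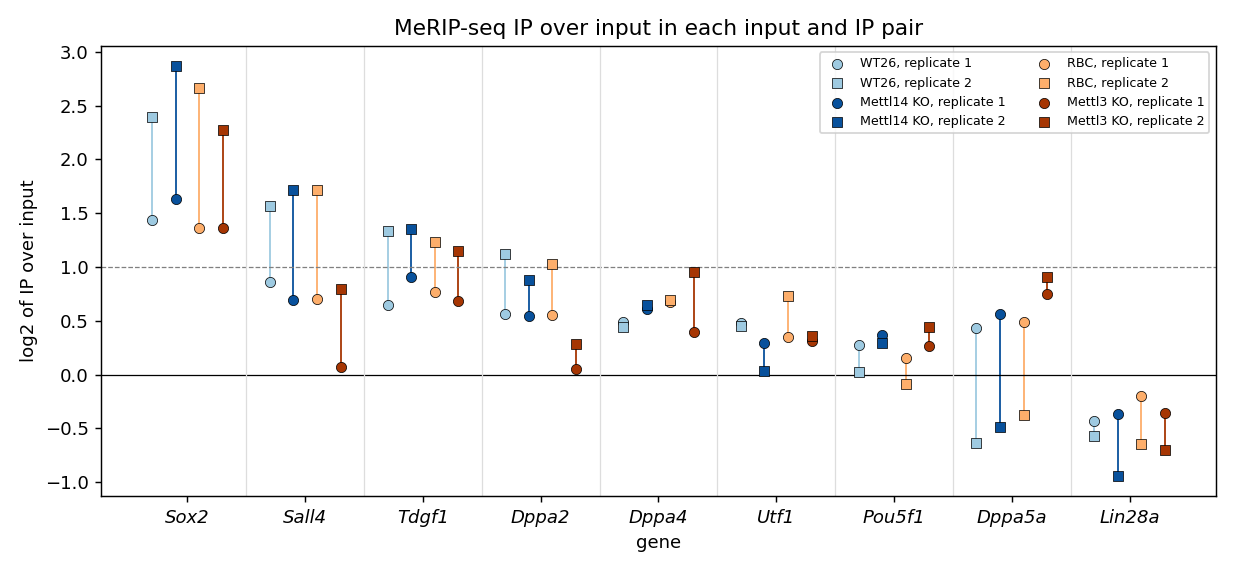
Log2 ratio of normalised IP over input counts for 9 genes in each pair of input and IP libraries, with replicate 1 as circles and replicate 2 as squares joined by a line. The solid line marks equality and the dashed line the enrichment limit of 1. Sox2 is above 1 in all 8 pairs, and Sall4 of Mettl3 KO lies below the other lines at each replicate number.

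No change of IP over input between lines was called for any of the 10 genes by edgeR or DESeq2, and none had an unadjusted p under 0.05 in the edgeR fit without a block. edgeR called 0 of 22621 features (0%) in each direction in Mettl14 KO against WT26, in Mettl3 KO against RBC and in RBC against WT26. At an unadjusted p under 0.05 it had 126, 787 and 133 features, and DESeq2 called 1, 0 and 0. In Mettl3 KO against RBC this number depended on how the replicates entered: it was 4569 (20.2%) with the replicate block separate for input and IP, 3668 without RBC IP replicate 1 and 274 without RBC IP replicate 2, with 0 features called in each of these fits. Of the 10 genes, Sall4 (−0.78) and Dppa2 (−0.62) had an unadjusted p under 0.05 with that replicate block, and Sall4 (−1.24), Dppa2 (−0.89) and Dppa5a (1.60) without RBC IP replicate 1. Over the 10 genes the changes had medians of 0.11 for Mettl14 KO and −0.16 for Mettl3 KO, against 0.02 and 0.01 over all features. The values of Sox2 were 0.36 ± 0.58 in Mettl14 KO and −0.21 ± 0.58 in Mettl3 KO, with intervals of 2 SE from −0.80 to 1.52 and from −1.36 to 0.95. The p-values that missed the threshold do not show that enrichment was alike in the lines.

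Genes that act with the 10 were read from 7 lists in the RNA-seq fit, and each list is described by its counts beside the shares of all genes given above. Of 20 naive pluripotency genes, 2 were called lower in Mettl14 KO and 1 lower and 1 higher in Mettl3 KO, while 15 were lower at the adjusted p alone in each. The list medians were −0.52 (Mettl14 KO) and −0.36 (Mettl3 KO). Gbx2 (−1.76 ± 0.12), a homeobox gene, was among those called in Mettl14 KO. In Mettl3 KO the called genes were Klf5 (−1.72 ± 0.08), a Krüppel-like factor gene, and Tcf7l1 (1.14 ± 0.15), which encodes the Wnt pathway repressor.

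Of 18 2-cell stage genes downstream of Dppa2 and Dppa4 in the table, 8 were expressed enough to test, of which 6 were called lower in Mettl14 KO and 5 in Mettl3 KO. At these low counts several genes passed the filter through the control libraries, where they were higher, so the counts are a description of the genes that passed and not of the list. Zscan4e, named after its value was seen, was the sixth in Mettl14 KO (−2.72 ± 0.71), and the 5 called in both were Pramel6 (−1.63 ± 0.17 and −3.92 ± 0.32), Pramel7, Zscan4c, Zscan4d and Zscan4f. Pramel6 had 170.0 and 158 normalised counts in WT26 and 47.1 and 58.5 in Mettl14 KO. It had 78.2 and 67.0 in RBC, against 3.5 and 6.0 for Mettl3 KO. The Zscan4 genes had 52.4 normalised counts or fewer in any library and are near-identical copies whose reads cannot be assigned with certainty.

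The Nodal pathway around Tdgf1 held more increases than decreases. Of 15 tested genes, 3 were called higher in Mettl14 KO, and 4 higher and 1 lower in Mettl3 KO, with medians of 0.25 and 0.41. Lefty1 and Lefty2, secreted Nodal inhibitors that are themselves Nodal targets, rose in both: Lefty1 by 3.08 ± 0.16 and 2.94 ± 0.10, and Lefty2 by 2.25 ± 0.14 and 1.49 ± 0.09. Lefty1 had 23 to 30 normalised counts in WT26 and 218 to 231 in Mettl14 KO, and 125 to 151 in RBC and 1030 to 1106 in Mettl3 KO. Also called in Mettl3 KO, and named after their values were seen, were the genes of proprotein convertases that process Nodal, of which Furin rose (1.27 ± 0.13) and Pcsk6 fell (−1.10 ± 0.06). The adjusted p-values of both Lefty genes were 4.83e-10 or below in both knockouts (edgeR).

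The lists around Lin28a, Sall4, Sox2 and Dppa3 held between 0 and 3 calls per knockout. Of 13 genes of the let-7 pathway, none was called in Mettl14 KO and 1 lower in Mettl3 KO, Hmga2, a let-7 target, at 0.499 of the RBC level. Medians were −0.06 and 0.07. Of 16 Sall and NuRD genes 1 was called higher in Mettl14 KO, Chd3 (1.40 ± 0.08), a NuRD helicase, and 2 in Mettl3 KO, the Sall4 relatives Sall3 (2.71 ± 0.18) and Sall2 (1.54 ± 0.18), with medians of −0.14 and 0.06. Of 9 tested SoxB and POU relatives, 2 were called lower in Mettl14 KO and 1 in Mettl3 KO, with medians of −0.27 and 0.20. Pou4f2 was lower in both (−2.06 ± 0.22 and −1.70 ± 0.18), and the other call in Mettl14 KO was Pou3f1 (−3.06 ± 0.39), named after its value was seen. Of 10 tested partners of Dppa3 and maternal factors, 2 were called lower in Mettl14 KO, and 2 lower and 1 higher in Mettl3 KO, with medians of −0.42 and −0.61. Of these 10, 9 and 7 were lower at the adjusted p alone. Khdc3, a gene of the maternal complex of the oocyte, was lower in both (−2.08 ± 0.11 and −1.91 ± 0.15). Tet2, a DNA demethylase gene, was called lower in Mettl14 KO (−1.54 ± 0.06), and Zfp57, the imprint guardian, in Mettl3 KO (−1.60 ± 0.05), where the DNA demethylase gene Tet3 was the one called higher (1.51 ± 0.09, named after its value was seen).

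**Figure D5:**
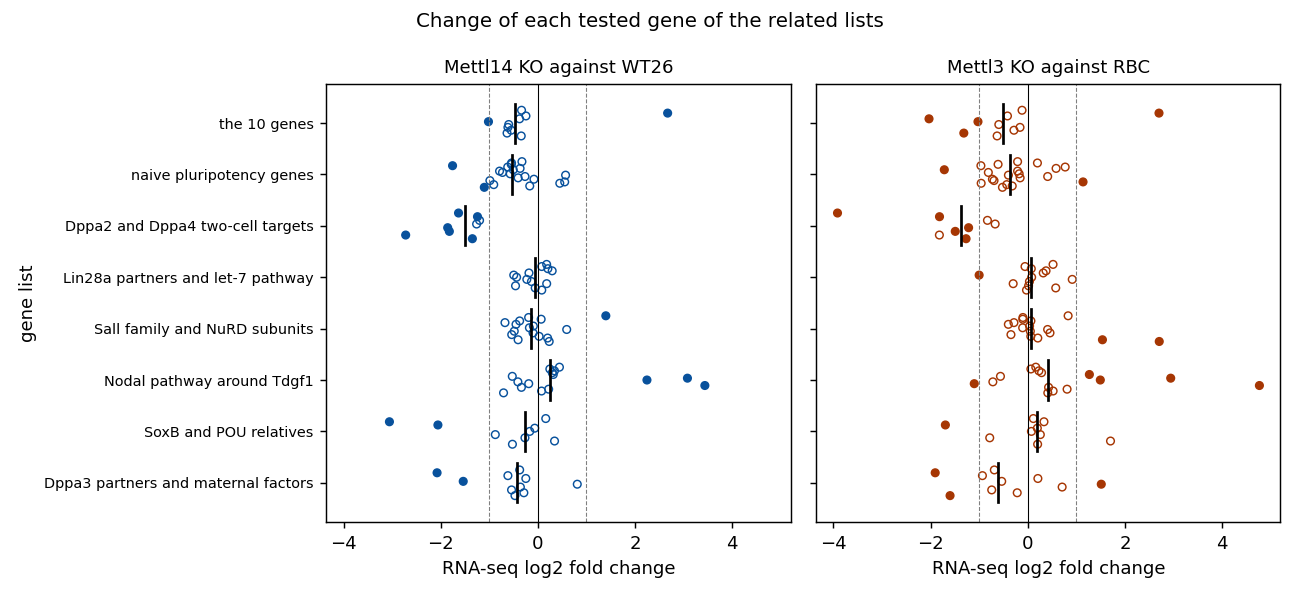
RNA-seq log2 fold change of each tested gene of the 10 genes and 7 related lists, in Mettl14 KO against WT26 (left) and Mettl3 KO against RBC (right). Filled points passed the adjusted p and the fold limit, black bars are list medians and dashed lines mark the fold limit. The 2-cell stage genes that passed the filter lie below 0 in both panels, and the Nodal list holds the largest increases.

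Markers of other cell types were low or of mixed direction. The ES cell genes Pou5f1, Sox2 and Sall4 were expressed in every line but lower in both knockouts than in their controls, as described above. Nanog fell from 1876 and 1997 normalised counts (WT26) to 1076 and 1164 (Mettl14 KO). The Mettl3 KO libraries held 1722 and 1740 Nanog counts, below the 1967 and 2036 of their RBC control. The fibroblast markers Dcn and S100a4 and the streak marker Cer1 were at 0 in both libraries of at least 3 lines. The 9 mesoderm and streak markers summed to 34.5 to 63.3 normalised counts in any library, the 10 fibroblast markers to 29.2 to 164 and the 10 trophoblast markers to 343 to 436. Primed pluripotency markers summed to 2171 to 2459 in WT26 and Mettl14 KO, and to 2234 to 2241 in RBC and 2574 to 2634 in Mettl3 KO. Neural markers summed to 829 to 855 in WT26, 645 to 678 in Mettl14 KO, 1203 to 1215 in RBC and 1417 to 1499 in Mettl3 KO. Primitive endoderm markers, which include laminin and collagen IV genes that ES cells make, summed to 15730 to 15998 in WT26 and 6644 to 6752 in Mettl14 KO, and to 11552 to 11694 in RBC and 3628 to 3688 in Mettl3 KO. Most of these sums came from Lama1 and Col4a1, while 6 of the 9 tested markers were called higher in Mettl14 KO (median 1.62). The part of these markers in the changes of the 10 genes was not tested, and in these bulk samples fewer cells of a type and less RNA per cell cannot be told apart.

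Promoter windows from 250 bases before to 50 after the start (RefSeq, GRCm38.p6) were found for 5 of the 10 genes, with 6 starts. The octamer core TGCAAAT, the Sox motif CATTGTT and the GATA motif AGATAA were searched on both strands, none of which contains another, and occur in 4.02%, 3.78% and 11.2% of all 32851 windows. The single match was a Sox motif 159 bases upstream of the second Pou5f1 start, on the strand opposite to the gene, shown here in capitals.
Pou5f1, second start, chr17:35508638-35508664, plus strand: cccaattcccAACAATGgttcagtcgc
The windows held 27 CpG for Sox2, 17 for Utf1, 11 and 6 for the Pou5f1 starts, 10 for Lin28a and 7 for Tdgf1, where the median of all windows was 7.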

How the data were processed

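RNA (RNA-seq, 8 libraries, total RNA per the labels but nuclear RNA per the study's text) and nuclear RNA (MeRIP-seq, 8 input and 8 IP libraries) of 4 ES cell lines were sequenced with 2 replicates per group. The authors deposited raw counts per gene and, for MeRIP-seq, also per repeat subfamily (1153), without normalization. MeRIP-seq reads were trimmed with cutadapt 1.8.1, aligned to GRCm38 with STAR 2.6.0c keeping multimapping reads, and counted with TEtranscripts. For RNA-seq the submitters' processing notes name FastQC, cutadapt 1.8.1, STAR 2.6.0c, DESeq2 1.26.0 and GRCm38, and the counting tool and its strand setting are not given in the sources used here.

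Tests used the quasi-likelihood fit of edgeR 4.0.16 (R 4.3.3, prior count 0.125), size factors of DESeq2 1.42.0, filterByExpr and Benjamini-Hochberg adjustment over 17021 genes or 22621 features. One fit used all libraries of a table. SE is that of the log2 fold change. Samples were grouped by their labels and 0 columns were left over. Input and IP of the same number come from the same RNA and are paired, so the block of pairs was an alternative. The labels number the RNA-seq libraries but do not say that equal numbers are paired. Deviations of same-numbered RNA-seq libraries correlated at −0.17 to 0.22 between lines, except for RBC and Mettl3 KO, at 0.45. Where nothing says that replicates came from separate cultures, p-values measure only the spread between these samples. Alternatives covered another tool (DESeq2's Wald test), TMM or library size scaling, other filters, calls by adjusted p only, fits on fewer libraries or on genes without repeats, replicate blocks and leaving out each library. The fits were tested on simulated data.

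The 10 genes, the lists and the tests were chosen with earlier results of these data known. Named list genes are those called in both knockouts or among the 2 largest called changes per knockout (mean of at least 50 normalised counts) with, for each of the 10, the gene with the most similar profile. Genes outside this rule are marked in the text, and some genes that meet it are not reported here. Gene models are of GENCODE M21 and Python was used for sequences.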

Additional observations from a re-analysis of the deposited data

Results flagged for a closer look

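The log2 fold changes of 4 of the 10 genes differed between the knockouts, by the test of the difference itself (Mettl3 KO minus Mettl14 KO, edgeR with Benjamini-Hochberg adjustment over 17021 genes, n = 2 per line). By the same threshold 20.8% of all genes differed upwards and 22.4% downwards, so that 4 of 10 is near the share over all genes. Dppa5a fell more in Mettl3 KO, with a difference of −1.66 ± 0.08 SE (adjusted p = 7.24e-11, edgeR). Tdgf1 also fell more in Mettl3 KO, by −0.68 ± 0.08 (adjusted p = 2.45e-06, edgeR). Sall4 fell more in Mettl14 KO, with a difference of 0.46 ± 0.07 (adjusted p = 2.59e-05, edgeR), and so did Sox2, with 0.26 ± 0.10 (adjusted p = 0.0401, edgeR). Dppa5a and Tdgf1 were themselves slightly lower in RBC than in WT26, and the lines differ in clone as well as in the gene knocked out, which cannot be told apart. Groups of 2 libraries are too small to test single libraries as outliers.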

How the results depend on the processing

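The 2 libraries per group limit every value, and MeRIP-seq pairs varied more than RNA-seq replicates. Of the counts of genes per comparison, 302 were within 1.5 times the reported count across the alternatives and 32 moved. Many of the 302 compare no called gene with no called gene, as for every change of IP over input between lines, and show no robustness. For single genes, 167 kept their side of the threshold, 35 lost it and none changed direction while called.

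At the adjusted p alone, 9 genes were lower in Mettl14 KO, 8 in Mettl3 KO and 3 in RBC against WT26, 2 differed upwards and 2 downwards between the knockouts, and 5 were enriched in RBC. With at least 10 counts in every library, 0 genes were higher in either knockout, since Dppa3 was then not tested. Library size scaling, which shifted all log2 ratios of IP over input by 0.381 to 0.460 and the difference between the knockouts by 0.176, gave 5 enriched genes in Mettl14 KO, 5 in RBC and 3 in Mettl3 KO. Over all genes it turned the calls between the knockouts from 1005 higher and 1374 lower to 1511 and 1091, and between RBC and WT26 from 827 and 701 to 666 and 964. Enriched and depleted features went from 3272 and 3064 to 5714 and 1583 in WT26, from 2692 and 2241 to 5127 and 932 in Mettl14 KO, from 3030 and 2501 to 5840 and 1052 in RBC, and from 575 and 420 to 2525 and 266 in Mettl3 KO. In the Mettl3 KO inputs, 1 gene was lower with DESeq2, 2 with the libraries compared only, and without a filter 2 were lower and 1 higher. Over all features, 297, 571 and 446 were lower in these fits, and 166 were higher without a filter. The cause was not tested.

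The replicate block of input and IP pairs left 0 enriched genes in Mettl3 KO. In the Mettl3 KO inputs the replicate block over the lines gave 1 lower gene, and the replicate block separate for input and IP, chosen after seeing the data, gave 2. In RNA-seq the same-numbered libraries deviated together most in RBC and Mettl3 KO (0.45). The replicate block changed no call of the 10 genes (Lin28a −1.02, adjusted p = 8.91e-10, edgeR). Crossing the WT26 numbers, also chosen after seeing the data, left 1 gene lower in Mettl14 KO and 3 in Mettl3 KO. Leaving out 1 library gave 0 to 1 lower genes in Mettl14 KO (0 without Mettl14 KO replicate 2), 0 to 4 enriched genes in WT26, Mettl14 KO and RBC, and 0 to 1 in Mettl3 KO. In these fits the lone library of a group is assumed to vary like the other groups.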

Other observations

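Of the markers of other cell types called in both knockouts, Cubn and Sox7 moved in opposite directions. Lama1, Pax6, Thy1 and Acta2 moved in the same direction. Of 9 tested primitive endoderm markers, 6 were called higher and 1 lower in Mettl14 KO (median 1.62), and 4 were called lower in Mettl3 KO (median −0.97). Cubn, the cubilin receptor gene of the visceral endoderm, was higher in Mettl14 KO (2.43 ± 0.17 SE) and lower in Mettl3 KO (−1.14 ± 0.24), and Sox7 likewise (1.77 ± 0.44 and −1.24 ± 0.35). Gata4 and Gata6, transcription factor genes of this lineage, and Pdgfra, all named after their values were seen, were higher in Mettl14 KO (1.90 ± 0.38, 1.41 ± 0.29 and 1.62 ± 0.17). Dab2, an endocytic adaptor gene, was higher in Mettl14 KO (2.06 ± 0.28) and had 0.03 ± 0.21 in Mettl3 KO. Lama1, a laminin chain gene with 11271 to 11274 normalised counts in WT26, fell in both (−1.52 ± 0.05 and −1.82 ± 0.05), and Col4a1 fell in Mettl3 KO (−1.14 ± 0.05) and had −0.99 ± 0.05 in Mettl14 KO.

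Of 8 tested primed pluripotency markers, 1 was called lower in Mettl14 KO and 3 higher in Mettl3 KO, with medians of −0.24 and 0.40. Cdh2, the N-cadherin gene, and Zic2 were called higher in Mettl3 KO (1.19 ± 0.15 and 1.12 ± 0.16), with Lef1 (3.52 ± 0.46) from low counts, and Pou3f1 was the one called lower in Mettl14 KO (−3.06 ± 0.39), both named after their values were seen. Of 4 tested neural markers, Pax6 rose in both knockouts (1.96 ± 0.22 and 1.21 ± 0.16) and Tubb3 fell in Mettl14 KO (−1.09 ± 0.09), with medians of −0.05 and 0.33. Of 4 tested fibroblast markers, with medians of −1.01 and −1.28, Thy1 fell in both (−2.03 ± 0.25 and −2.62 ± 0.26), from 98.6 normalised counts or fewer. Acta2 was also called lower in both (−4.49 ± 0.83 and −3.19 ± 0.37). It had only 17 and 11 reads in WT26 and 0 and 1 in Mettl14 KO, so the size of that change is not reliable. Acta2 passed the filter on low counts through the control libraries, where it was higher. Col1a2, named after its value was seen, was higher in Mettl3 KO (2.26 ± 0.46). The medians of 2 tested mesoderm markers were 0.85 in Mettl14 KO and −0.45 in Mettl3 KO, and those of 5 tested trophoblast markers 0.38 and 0.32.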
